A study of Mus musculus with 2 samples.

Results

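Mir199a-1, Mir199a-2, Mir199b and Mir214 are 4 miRNA genes that lie within the 3 dynamin genes of the mouse, Dnm2, Dnm3 and Dnm1. They were chosen by symbol rather than by level, and all 4 had an entry among the 1973 miRNA genes counted. The study sequenced small RNA from heart tissue of mouse embryos (strain B6NCrl, embryonic day 14.5). It holds 1 untreated group of 2 libraries, biological replicates 1 and 2, whose hearts were collected on 15 and 17 July 2014. Each library is described as 1 heart while its sex entry names a pool of males and females, and both libraries carry the same donor entry, so the labels do not settle how many animals stand behind them. With 1 group there is no comparison of conditions, and with 2 libraries the smallest two-sided permutation p is 0.5, so levels are given as a description with counting error and the spread between libraries.

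A miRNA gene is transcribed as a long precursor, from which a hairpin is cut and then trimmed to a pair of short mature arms, the 5p and the 3p arm. The arm loaded into the silencing complex finds its target messages mostly through its seed, bases 2 to 8. In the mouse, miR-199 is made by 3 genes, and Mir214 is made from the same long non-coding transcript as Mir199a-2, Dnm3os. These miRNAs are known from fibroblasts, connective tissue and developing skeleton, and in the heart miR-199 and miR-214 are studied for growth, fibrosis and the response to low oxygen. The dynamins themselves are GTPases that pinch vesicles from membranes.

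The mature arms are shown first because they decide which genes can be told apart by a short read. The sequences are from RefSeq (GRCm38.p6), and capitals mark the seed. The 5p arm of miR-199 is the same in Mir199a-1 and Mir199a-2, while RefSeq lists no 5p arm for Mir199b. The stretch of the Mir199b hairpin nearest to it is printed in its place.
miR-199a-5p: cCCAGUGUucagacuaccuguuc
Mir199b hairpin, bases 26 to 48: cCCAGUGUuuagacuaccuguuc
miR-199a-3p: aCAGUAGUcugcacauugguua
miR-199b-3p: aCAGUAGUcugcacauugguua
miR-214-3p: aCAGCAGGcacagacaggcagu
miR-214-5p: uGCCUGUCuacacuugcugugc
miR-761: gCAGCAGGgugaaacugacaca
The 5′ stretch of Mir199b carries the seed CCAGUGU of miR-199a-5p and differs from it by 1 substitution, C10U, counted from the 5′ end of miR-199a-5p and with the base of Mir199b last. The 3p arm was identical in all 3 miR-199 genes, with the seed CAGUAGU. The seed of miR-214-3p, CAGCAGG, matched that of miR-199a-3p at 5 of 7 positions. Among the 1738 mature arms in the RefSeq table, miR-761 was the only one outside these 4 genes to carry a seed of theirs, that of miR-214-3p. Mir761 had 0 counts in both libraries, which allows at most 0.693 CPM (a count divided by the library's assigned reads and scaled as parts per 1e6) in replicate 1 and 0.781 in replicate 2, taking 3 counts as the limit for a count of 0.

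The hairpins show where such sharing lies. Capitals mark every base that falls in a stretch of 20 bases found in another of the 1005 RefSeq hairpins. All positions are on GRCm38, the assembly called mm10.
Mir199a-2, chr1:162217814-162217923, plus strand: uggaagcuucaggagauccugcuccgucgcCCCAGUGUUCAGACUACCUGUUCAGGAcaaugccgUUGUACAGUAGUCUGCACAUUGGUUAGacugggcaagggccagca
Mir199a-1, chr9:21496495-21496564, minus strand: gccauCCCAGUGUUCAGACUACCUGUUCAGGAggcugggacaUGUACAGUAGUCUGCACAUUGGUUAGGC
Mir199b, chr2:32318460-32318569, plus strand: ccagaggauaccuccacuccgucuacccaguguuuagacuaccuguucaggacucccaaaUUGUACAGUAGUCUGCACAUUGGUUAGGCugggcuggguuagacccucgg
Mir214, chr1:162223368-162223477, plus strand: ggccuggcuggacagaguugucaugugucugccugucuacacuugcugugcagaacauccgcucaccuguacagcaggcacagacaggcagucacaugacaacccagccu
In Mir199a-1, 55 of 70 bases were shared in this way, in Mir199a-2 54 of 110, in Mir199b 29 of 110 and in Mir214 none. The shared bases were shared within the family alone, since the windows of each miR-199 hairpin occurred in no hairpin other than those of the 2 other miR-199 genes. Both arms of Mir199a-1 and of Mir199a-2 lie wholly within capitals, as does the 3p arm of Mir199b. In the loop between the arms, 10 of 17 bases in Mir199a-1 and 8 of 16 in Mir199a-2 stand in lower case, and their remaining lower-case bases lie at the outer ends of the hairpin. The longest run shared by Mir199a-2 and Mir199a-1 was 27 bases and that of Mir199a-1 and Mir199b was 28, both longer than the mature arms of 22 or 23 bases, while Mir214 shared at most 7 bases in a row with any of them.

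**Figure D1:**
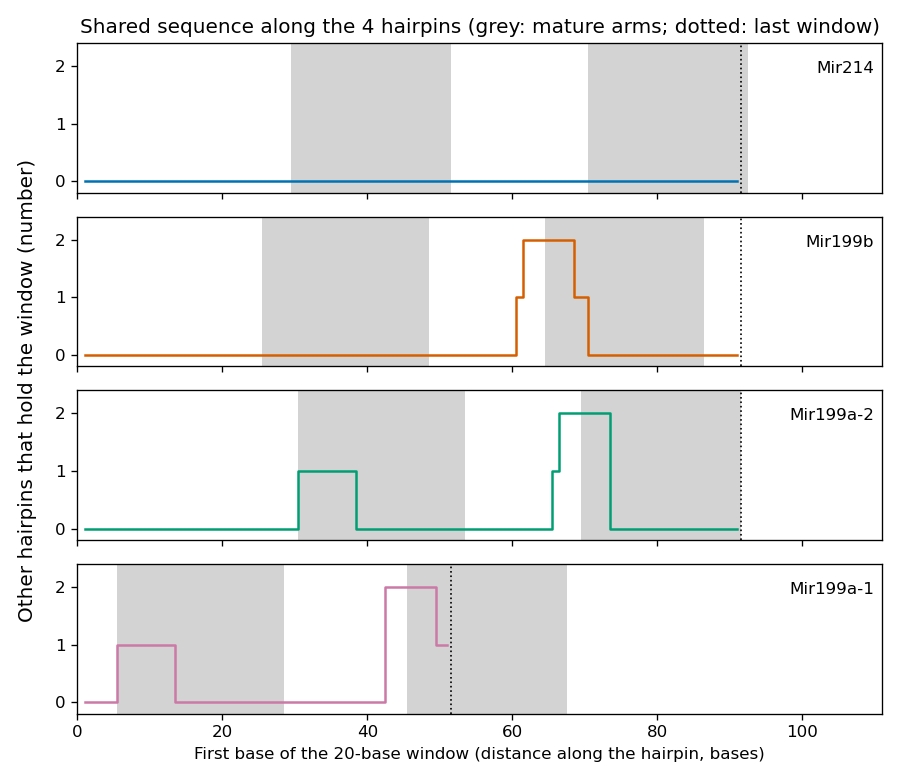
Number of other hairpins (vertical axis) that hold the 20-base window starting at each base of the hairpin (horizontal axis, bases from the 5′ end), for the 4 genes; grey marks the mature arms, with the stretch nearest miR-199a-5p marked in Mir199b, and the dotted line the last window. Mir214 stays at 0, Mir199b rises to 2 at its 3p arm, and Mir199a-2 and Mir199a-1 rise to 1 at the 5p arm and to 2 at the 3p arm.

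The tables count reads per gene without separating the arms, and a separate line holds reads that mapped to several places, at 2496903 reads (30.6% of all) in replicate 1 and 2190149 (30.1%) in replicate 2. A read of the 3p arm fits all 3 miR-199 genes equally well, and one of miR-199a-5p fits both Mir199a genes. How many of the reads that mapped to several places came from miR-199 was not analysed here, so the levels of the 3 miR-199 genes below cover assigned reads only. The part of this sharing in the differences between the genes was not tested. All 4 genes lie on the strand opposite to their dynamin gene and in one of its introns. Mir199a-2 and Mir214 lie in Dnm3 (chromosome 1, 161982453 to 162478034, minus strand) and also in exons of Dnm3os (162217623 to 162225550, plus strand), with 5444 bases between the hairpins. Mir199b lies in Dnm1 (chromosome 2, 32308471 to 32353338, minus strand), and Mir199a-1 in Dnm2 (chromosome 9, 21424908 to 21507759, plus strand). No other annotated miRNA gene lay within 10 kb of the 4 genes except Gm23363, which ends 116 bases before Mir199b and had 3 counts in each library.

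Mir214 was the most abundant of the 4. It had 15306 counts in replicate 1, or 3537 CPM, and 14225 in replicate 2, or 3704 CPM, scaled to 4327424 and 3839984 reads assigned to miRNA genes. Mir199b had 903 and 684 counts, or 209 and 178 CPM. Mir199a-2 had 182 and 196 counts, or 42.1 and 51.0 CPM, and Mir199a-1 had 10 and 13, or 2.31 and 3.39 CPM. The order was the same in both libraries, and the values of no pair of these genes overlapped over the libraries. The means were 3621 ± 118 CPM (SD, n = 2) for Mir214, 193 ± 21.6 for Mir199b, 46.5 ± 6.35 for Mir199a-2 and 2.85 ± 0.760 for Mir199a-1. In whole tissue, fewer cells of a type and less RNA per cell cannot be told apart.

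**Figure D2:**
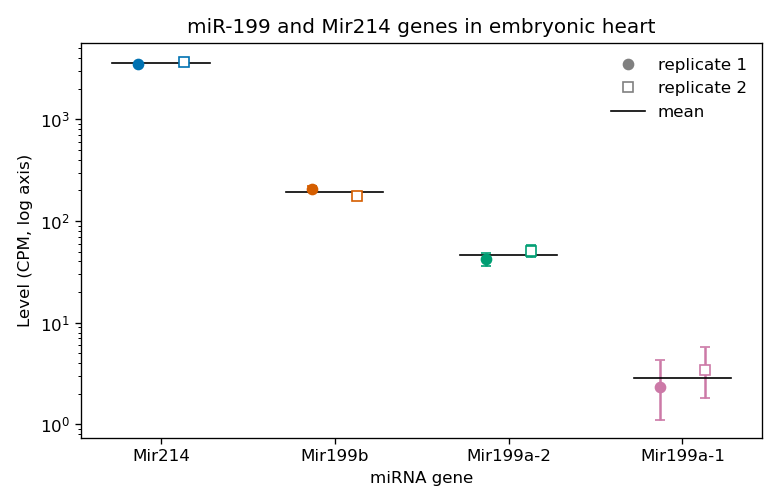
Level of each gene in CPM (log axis) in replicate 1 (filled circles) and replicate 2 (open squares), with exact 95% Poisson intervals as error bars and the mean as a line. The genes fall in separate steps from 3621 CPM for Mir214 to 2.85 for Mir199a-1, and only Mir199a-1 has an interval that is wide against its level.

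Counting error was small beside these steps for all but the lowest gene. The exact 95% Poisson interval of Mir214 ran from 3481 to 3593 CPM in replicate 1 and from 3644 to 3766 in replicate 2. For Mir199a-1 it ran from 1.11 to 4.25 CPM and from 1.80 to 5.79, so its level is known to within a few-fold only. Its counts of 10 and 13 also stood at or just above the minimum of 10 counts in each library used here to call a gene detected. By that minimum all 4 genes were detected, against 17.1% of all genes in the tables. With at least 50 counts in each library 3 of the 4 remained, Mir199a-1 being the one lost. These intervals describe counting error alone and leave out the spread between libraries. Several reads can be copies of 1 molecule where no molecular identifiers mark them, and the intervals would then be too narrow.

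Among all miRNA genes ordered by level, Mir214 took place 37 in replicate 1 and place 35 in replicate 2. Mir199b took places 138 and 149, Mir199a-2 places 206 and 208, and Mir199a-1 places 349 and 328. Detected genes had a median of 104 CPM, so that Mir214 and Mir199b lay above the middle of the detected range and both Mir199a genes below it. Together the 4 genes held 0.379% and 0.394% of the assigned reads. Mir214 gave 93.7% ± 0.544 (SD, n = 2) of that, Mir199b 5.02% ± 0.694, Mir199a-2 1.20% ± 0.132 and Mir199a-1 0.0735% ± 0.0177.

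**Figure D3:**
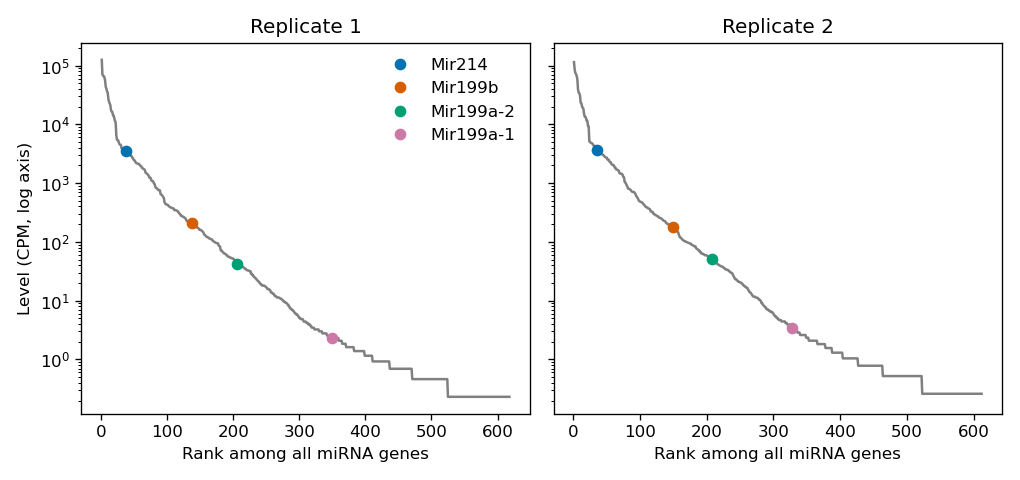
Level in CPM (log axis) against rank among all miRNA genes with at least 1 count, in each library; the grey line is all genes and the points are the 4 genes. Mir214 sits on the steep upper part at place 37 and 35, and Mir199a-1 at places 349 and 328, where its level rests on 10 and 13 counts.

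Mir214 and Mir199a-2 come from the same transcript and from hairpins annotated at the same 110 bases, so their counts compare without a correction for length. The count of Mir214 was 84.1 times that of Mir199a-2 in replicate 1 (exact 95% binomial interval 72.7 to 97.9) and 72.6 times in replicate 2 (63.0 to 84.0). The intervals overlapped, so they do not show a difference between the libraries in this ratio beyond counting error, nor do they exclude one. Every base of the Mir199a-2 arms is shared with another hairpin and no 20-base window of Mir214 is, and the part of that difference in the ratio was not tested. Against all 3 miR-199 genes summed, at 253 and 233 CPM, Mir214 was 14.0 times higher in replicate 1 and 15.9 times in replicate 2, with intervals of 13.1 to 14.88 and 14.89 to 17.1. These intervals were narrowly apart, so the libraries differed in this ratio by more than counting error.

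Within the miR-199 family, Mir199b led. Its count was 4.96 times that of Mir199a-2 in replicate 1 (4.23 to 5.85) and 3.49 times in replicate 2 (2.97 to 4.11), and these intervals did not overlap. The libraries therefore differed in the ratio by more than counting error, and Mir199b stayed above Mir199a-2 in both. Mir199b is also the family member with the fewest shared bases, since its 5′ stretch carries the C10U difference and lies outside the capitals above. Mir199a-2 had 18.2 and 15.1 times the count of Mir199a-1, with intervals of 9.67 to 38.6 and 8.61 to 28.8. The Mir199a-1 hairpin is annotated at 70 bases against 110, and per hairpin base the ratios were 11.6 and 9.59. The mature arms are 22 and 23 bases long in both genes, so by arm length the ratios of counts need no such correction. Both genes make the same mature miR-199a arms, and a read of an arm alone fits both.

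**Figure D4:**
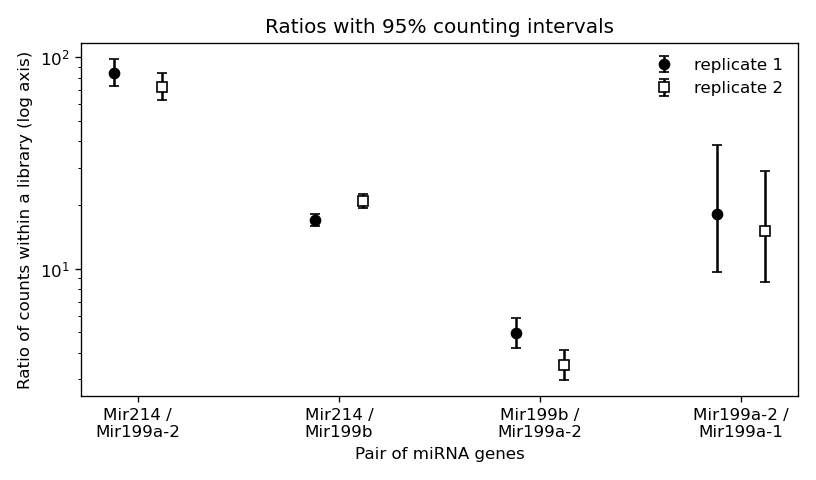
Ratio of counts between 2 genes of the same library (log axis) for 4 pairs, with exact 95% binomial intervals; filled circles are replicate 1 and open squares replicate 2. The intervals of the libraries overlap for Mir214 over Mir199a-2 and for Mir199a-2 over Mir199a-1, and are apart for both pairs with Mir199b.

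Between the libraries the 4 genes did not move together. Mir214 was 1.05-fold higher in replicate 2 (exact 95% interval of the ratio 1.02 to 1.07), among the 32.6% of the 337 detected genes whose counting interval lay above 1. This direction depended on the scaling: the log2 difference was 0.07 with totals as used here and -0.05 with median-of-ratios scaling. Mir199b was 1.17-fold lower in replicate 2 (1.06 to 1.30), among the 19.6% of detected genes whose interval lay below 1, and it was lower under every scaling tried. Mir199a-2 was 1.21-fold and Mir199a-1 1.47-fold higher in replicate 2, with intervals of 0.987 to 1.49 and 0.593 to 3.73 that include no difference. The ratio intervals compare these 2 libraries and not the days or animals they came from.

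These differences were set beside those of other genes of like level. On the log2(CPM + 1) scale, Mir199b differed by -0.23 against a median absolute difference of 0.23 over the 50 detected genes nearest in level, of which 25 differed more. Mir199a-2 differed by 0.27 against 0.22, with 21 of 50 differing more, and Mir199a-1 by 0.41 against 0.25, with 17 of 50. Mir214 differed by 0.07 against 0.17, and 38 of its 50 neighbours differed more.

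**Figure D5:**
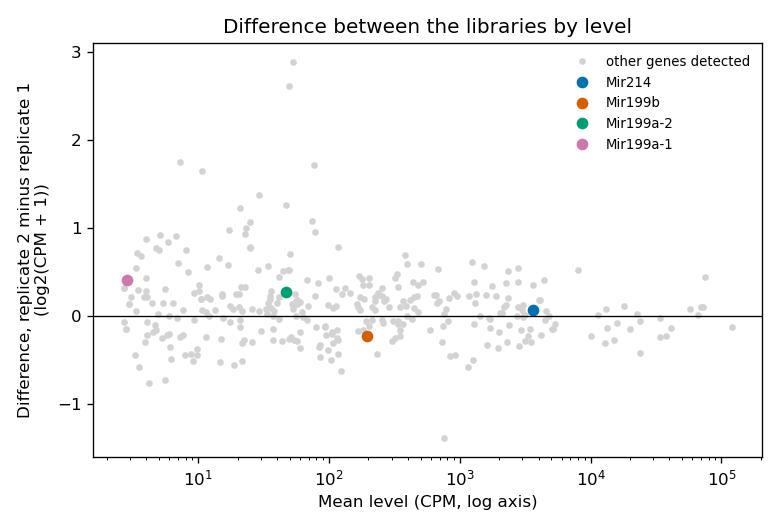
Difference between the libraries (replicate 2 minus replicate 1, log2(CPM + 1)) against mean level (CPM, log axis) for the 337 genes detected in both; grey points are other genes. The 4 genes lie within the grey cloud, Mir214 at 0.07 near the zero line and Mir199b at -0.23 below it.

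None of the 4 genes had a read on the strand of its dynamin gene. The opposite strand held 0 counts for each in both libraries, which allows a share of up to 0.0196% of the Mir214 count in replicate 1 and 0.0211% in replicate 2. For Mir199b the limits were 0.332% and 0.439%, for Mir199a-2 1.65% and 1.53%, and for Mir199a-1, with its few reads, 30.0% and 23.1%. A count of 0 on the opposite strand was common, at 91.7% of detected genes. In orientation the 4 genes belong to a smaller class. Of the counted genes with a name, 238 lie in a protein-coding gene on the opposite strand only, and 31 of them (13.0%) were detected, against 159 of 863 (18.4%) in a protein-coding gene on the same strand and 147 of 793 (18.5%) outside protein-coding genes. The median level of the detected ones was 107 CPM in the first class and 107 in the second, which Mir214 and Mir199b exceeded.

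The Mir214 hairpin had a more stable predicted fold than the miR-199 hairpins. Its minimum free energy was -67.5 kcal/mol, or -0.61 per base, lower than that of 95.9% of the 1005 hairpins, whose median was -0.41. Mir199b at -0.38, Mir199a-2 at -0.39 and Mir199a-1 at -0.41 per base lay near that median. These energies describe the annotated sequences, and guanine and cytosine content was similar in the 4 hairpins, from 52.7% in Mir199b to 56.4% in Mir214.

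Genes with shared arms were compared over the 916 of 1973 counted genes that have a listed mature arm, to place the miR-199 family. The 17.1% detected among all genes is therefore not the base for these classes. Of the mature arms in the RefSeq table, 121 (6.96%) occurred in more than 1 hairpin and 22 in 3 or more, as miR-199a-3p does. Counted genes with every listed arm in another hairpin numbered 35, of which 7 (20.0%) were detected, all 3 miR-199 genes among them. Mir199b had the highest level of the 35, Mir199a-2 the fourth highest and Mir199a-1 the seventh. Mir199b belongs here because RefSeq lists its 3p arm alone. Of genes with only some arms shared, 31 of 49 (63.3%) were detected, and of those with none shared, 270 of 832 (32.5%), with Mir214 at place 32 of the 832. The median level of detected genes was 46.5 CPM in the class with every arm shared, which is the level of Mir199a-2 itself, 50.2 in the middle class and 120 in the class with none shared.

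Other miRNAs widely reported in fibroblasts, smooth muscle and connective tissue were set beside the 4. Of 14 such genes, 12 were detected, against 17.1% of all genes, with a median of 673 CPM over the 14, while the median over all genes in the tables was 0. The list was chosen with levels of some of its genes known, so it is no independent support. Mir214 lay below 4 of the 14, Mir143 (74458 ± 15820 CPM), Mir21a (23749 ± 622), Mir22 (13095 ± 511) and Mir100 (4063 ± 361), and above Mir140, a miRNA of cartilage (2796 ± 530), and Mir145a (1338 ± 164). Mir199b lay at the level of Mir152 (201 ± 42.6 CPM). Of the 4 listed genes of the miR-29 family, which targets collagen messages, Mir29a (254 ± 39.2 CPM) lay above Mir199b in both libraries. The other 3 lay below it, Mir29c (99.9 ± 21.1), Mir29b-1 (1.69 ± 0.550) and Mir29b-2 (0.983 ± 0.0830). The last 2 are, like Mir199a-1, genes with a few assigned reads only, and reads that mapped to several places are not in these values.

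The tissue label was checked on miRNAs of other cell types. Of 7 counted heart muscle miRNAs 5 were detected, summing to 75760 CPM in replicate 1 and 79364 in replicate 2. Mir208b (66568 ± 359 CPM), Mir208a (7962 ± 2009) and Mir499 (3023 ± 179) carried that sum, the other 4 lay between 0.882 and 2.99 CPM, and the median of the 7 was 2.99. Those other 4 were genes of miR-1 and miR-133. Their values cover assigned reads only, so they do not show that these miRNAs were nearly absent. The endothelial Mir126a summed to 69932 and 75015. Epithelial miRNAs, 6 of 6 detected, summed to 445 and 879 CPM, white blood cell miRNAs, 3 of 3 detected, to 493 and 405, and red blood cell miRNAs, 2 of 2 detected, to 1184 and 489. Of 6 counted neuronal miRNAs 5 had 0 counts, as had 65.1% of all genes, and the list summed to 13.2 and 85.7 CPM through Mir137. How many reads that mapped to several places came from the listed genes was not analysed. A count of 0 in assigned reads therefore does not show that a miRNA, or its cell type, was absent. In CPM, the heart muscle, endothelial, epithelial and neuronal sums were higher in replicate 2, and the red and white blood cell sums in replicate 1. Mir126a differed by 0.10 on the log2 scale, and the heart muscle sum by less. Median-of-ratios scaling moved log2 ratios between the libraries by -0.11, so the direction of these 2 sums depends on the scaling. Higher in replicate 2 were also the smooth muscle sum (64494 and 87098 CPM), the skeletal muscle Mir206 (15.7 and 34.1), the cartilage Mir140 (2422 and 3171) and the connective tissue list (109721 and 133786). The connective tissue list includes the smooth muscle genes Mir143 and Mir145a and also Mir140, so these sums are not independent. Mir143, at 63272 and 85644 CPM, was the largest part of both the smooth muscle and the connective tissue sum. The part of all these sums in the differences of Mir214 and Mir199b between the libraries was not tested.

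The genes whose levels over the 2 libraries were closest to each of the 4 were found by distance on the log2(CPM + 1) scale. For Mir214 they were Mir130b (3585 and 3241 CPM, distance 0.19) and Mir106b (3191 and 4082 CPM, distance 0.20). Mir199b was nearest to Mir132 (213 and 181 CPM, distance 0.04) and Mir669l (208 and 193 CPM, distance 0.11). Mir199a-2 was nearest to Mir218-2 (40.0 and 57.8 CPM, distance 0.19) and Mir670 (36.7 and 52.6 CPM, distance 0.19), and Mir199a-1 to Mir3109 and Mir7069, each with 10 and 12 counts. With 2 libraries this nearness is mostly one of level.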

How the data were processed

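Small RNA was sequenced from 2 mouse embryonic heart libraries. Per the deposited descriptions, the count tables refer to mm10 and GENCODE M4, with 1 table per library. Names of the aligner and counter: not given in the sources used here. The deposited values are whole-number read counts per gene in 3 columns (unstranded, first strand, second strand), not normalized as judged from their differing totals.

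The first strand column was used, and lines that name no gene (46.9% and 47.2% of all reads) were left out of totals. Counts were scaled to CPM, with a pseudocount of 1 CPM for log2 values. Symbols and positions came from GENCODE M21 (1894 of 1973 identifiers matched), which uses the same assembly, and sequences from RefSeq (GRCm38.p6). Arms and windows were searched in the 1005 RefSeq hairpins; no genome sequence was searched, so the planned count of genome positions became a count of hairpins. Counted genes with a listed mature arm numbered 916. Intervals were exact at the 95% level (Poisson for levels, binomial for ratios).

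The members and lists were chosen with earlier results of these data known. Named genes were the 4 genes, those sharing a seed, the nearest 2 in level over both libraries, annotated miRNAs within 10 kb and overlapping genes; genes of the connective tissue list were named after their values were seen. Tools were Python 3.11.15, numpy 2.4.6, pandas 2.3.3, scipy 1.17.1, RNAfold 2.7.2 and, for TMM factors, edgeR 4.0.16 in R 4.3.3. Alternatives were both strands together, TMM and median-of-ratios scaling, other totals, pseudocounts and minimums, and each replicate left out.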

Additional observations from a re-analysis of the deposited data

How the results depend on the processing

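The level of Mir214 (3621 CPM) ranged from 3537 to 3704 with 1 replicate left out, and was 3452 with both strands together, 4112 with a total without the most abundant gene and 1917 with a total of all reads. The miR-199 sum (243 CPM) ranged from 233 to 253 with 1 replicate left out, and was 276 without the most abundant gene and 129 with all reads as the total. These totals rescale every gene alike within a library. The ratio of Mir214 to Mir199a-2 ranged from 72.6 to 84.1, and that of Mir199b to Mir199a-2 from 3.49 to 4.96, with 1 replicate left out, and both were the same with both strands together. The difference of Mir214 between the libraries, 0.07 on the log2 scale, turned to -0.0469 with median-of-ratios scaling and was 0.00147 with TMM, with an interval that included 0. Median-of-ratios scaling moved log2 ratios between the libraries by -0.11 before a pseudocount is added, and that of Mir199a-1 with the pseudocount by -0.08. For the other 3 genes no alternative changed the direction of the difference between libraries or whether its interval included 0. No paired analysis was possible because there is 1 group. Depth limits Mir199a-1 most, since 1 read is 0.231 CPM in replicate 1 and 0.260 in replicate 2.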
